A study of Danio rerio with 4 samples.

Results

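The natriuretic peptide genes nppa and nppb were examined in embryonic zebrafish hearts with and without forced expression of the secreted BMP ligand Bmp2b. They were taken as every probe that the platform annotation names nppa or nppb, which gave 5 of the 43603 probes on the array, for 2 of the 15528 genes with a symbol. The 2 Bmp2b arrays came from embryos carrying the transgene Tg(hsp70l:bmp2b)fr13, in which the heat shock promoter hsp70l drives bmp2b, and the 2 WT arrays came from wild-type embryos. Both genotypes received the same heat shock, 30 min at 37 °C from 18 hours post fertilization (hpf), and the whole heart was taken out manually between 21 and 23 hpf. Each array held Cy3-labelled RNA from hearts pooled across embryos, so the spread between arrays is not that between single embryos. The promoter is not restricted to the heart, and the hearts hold every cell type that was dissected with them.

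Natriuretic peptides are small hormones with a ring closed by a disulfide bond, cut from longer precursors that heart muscle cells make and secrete. nppa encodes atrial natriuretic peptide and nppb encodes B-type natriuretic peptide. They act through receptors that make cyclic GMP, and a clearance receptor removes them from the circulation. In the vertebrate embryo nppa is a marker of the working muscle of the forming chambers and is kept low in the atrioventricular canal, where BMP signalling and the T-box repressors Tbx2 and Tbx3 act. In mammals both genes respond to stretch and load. In the current zebrafish gene table (GRCz12tu, used for names and gene order only) nppb lies between nppal and nppa on chromosome 8, with no other listed gene among the 3.

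Both genes were higher in Bmp2b hearts relative to the other transcripts on the same array. After normalization the nppb probe with the brighter signal was 2.88-fold higher and the brightest nppa probe 2.77-fold higher, and the other 3 probes were 1.62-fold to 2.18-fold higher. All 5 probes lay above background on all 4 arrays, all 5 were tested, and all 5 rose with the WT arrays counted separately (limma, Benjamini-Hochberg over 24454 probes; adjusted p = 0.019 to 0.0405). Of all probes tested, 6.82% were called higher and 9.03% lower by the same rule. With only the 14763 probes above background on all 4 arrays, as the members were, 1712 (11.6%) were called higher and 1554 lower. With the mean of the WT arrays counted as 1 sample, limma called 0 of the 5 (adjusted p = 0.262 to 0.46; 3 of the 5 at an unadjusted p under 0.05), and it called 0% of all probes higher (2954 probes in either direction at an unadjusted p under 0.05). With trend and robust priors this fit called 0.311% of all probes higher and again 0 of the 5 (adjusted p = 0.113 to 0.496). The calls thus rest on counting the WT arrays as 2 samples.

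The arrays differed in ways that bear on every value. The raw median intensity was 35 and 42 on Bmp2b arrays 1 and 2, against 49 and 47 on the WT arrays, and 34.1% and 46.2% of probes lay above background on the Bmp2b arrays, against 57.4% and 57.1% on the WT arrays. Background was set on each array at 2 times the 5th percentile of its raw intensities. The WT arrays were closer to each other than repeated spots of 1 array. Over 36 probes printed 5 times, the root mean square gap between their spot means was 0.0666 log2 units, and the spot-to-spot spread predicts 0.109. Between the Bmp2b arrays the gap was 0.718 over 22 such probes, and the spread predicts 0.12. The WT arrays thus differed by less than the sampling noise, so their spread shows no difference between pools. Tests are therefore also given with the mean of the WT arrays as 1 sample. Both Bmp2b arrays lay on 1 slide and each WT array on a slide of its own, so genotype and slide cannot be told apart. As a check of the labels, bmp2b itself had normalized log2 values of 13.74 and 14.03 on the Bmp2b arrays, against 7.86 and 8.09 on the WT arrays.

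The raw intensities are given first, because the difference between groups appeared once the arrays were put on a common scale. The brightest nppa probe, A_15_P131111, read 262 and 587.5 on Bmp2b arrays 1 and 2, against 374.5 and 375 on the WT arrays. The second nppa probe, A_15_P111331, read 61 and 164 on the Bmp2b arrays, against 128 and 121 on the WT arrays. The third, A_15_P164096, read 62.5 and 123 on the Bmp2b arrays, against 112 and 93 on the WT arrays. For all 3 nppa probes the dimmer Bmp2b array lay below both WT arrays and the other Bmp2b array above both.

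The same held for nppb. The nppb probe A_15_P189981 read 1457 and 3726.5 on the Bmp2b arrays, against 2363 and 2564 on the WT arrays. The nppb probe A_15_P102414 read 750.5 and 1635 on the Bmp2b arrays, against 1582.5 and 1481 on the WT arrays. Before scaling, the groups therefore overlapped for 5 of 5 probes. Whole arrays were dimmer still: across all tested probes, the median ratio of raw intensity to the WT mean was 0.289 on Bmp2b array 1 and 0.619 on Bmp2b array 2. The 5 member probes had ratios of 0.49 to 0.699 on Bmp2b array 1 and 1.07 to 1.57 on Bmp2b array 2, above that median on both arrays.

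A rank within the array needs no scaling between arrays, but it depends on the other probes of that array. Quantile normalization, used below, is built on the same ranks, so the percentiles are not separate support for the normalized values. After that step both Bmp2b arrays lay above both WT arrays for 28.9% of all probes tested. The brightest nppa probe had percentiles of raw intensity of 84.2 and 82.1 on the Bmp2b arrays, against 73.5 and 74 on the WT arrays. For the nppb probe A_15_P189981 the percentiles were 94.7 and 94.3 on the Bmp2b arrays, against 87.9 and 88.7 on the WT arrays. The remaining 3 probes also ranked higher on each Bmp2b array than on either WT array. A_15_P164096, for one, had percentiles of 69.8 and 68.2 on the Bmp2b arrays, against 61.3 and 59.8 on the WT arrays.

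**Figure D1:**
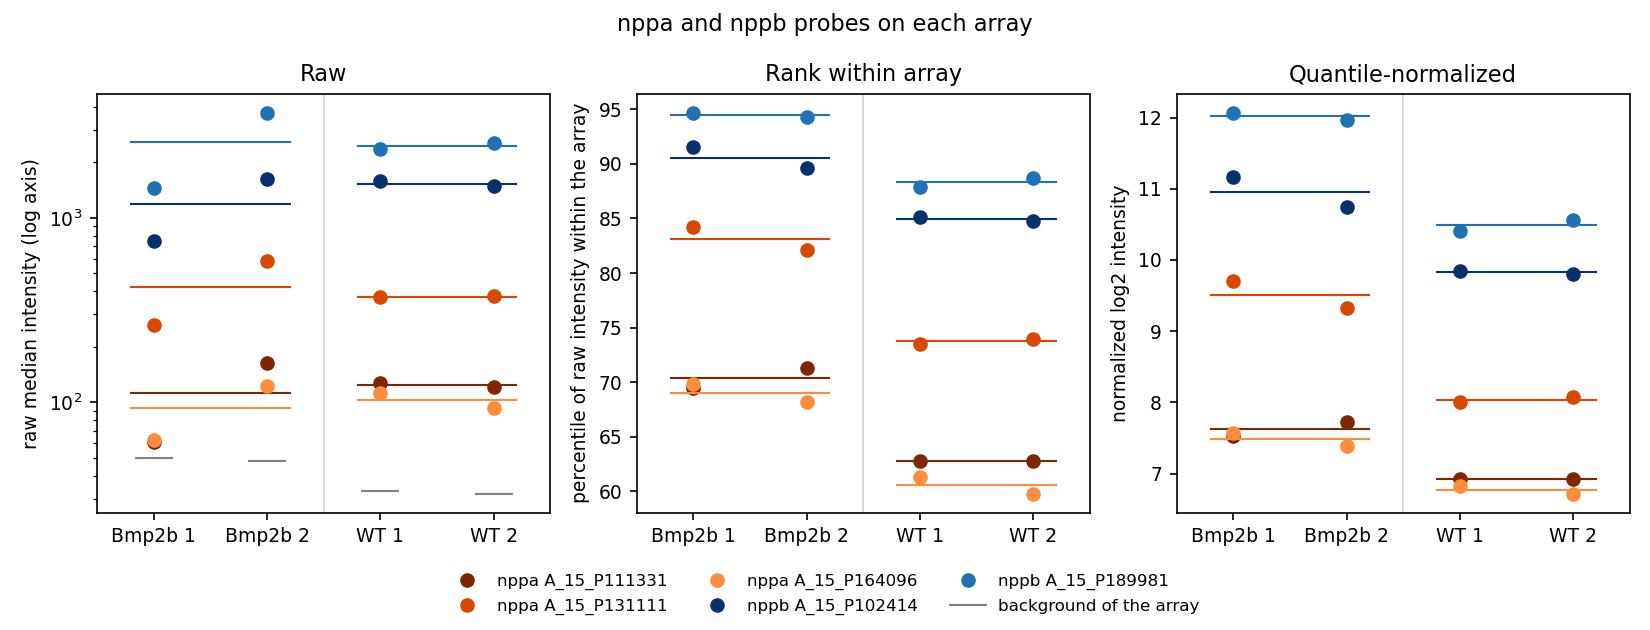
Each point is 1 probe on 1 array, for 3 nppa probes and 2 nppb probes on 2 Bmp2b and 2 WT arrays, as raw median intensity (log axis), as percentile within the array, and as quantile-normalized log2 intensity; lines are group means and grey bars the background of each array. Raw values of the groups overlap for all 5 probes, while percentiles and normalized values are higher on both Bmp2b arrays.

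Quantile normalization, after background correction, gives every array the same distribution of values. Both Bmp2b arrays lay above both WT arrays for 5 of 5 probes, as they did for 28.9% of all probes tested. The brightest nppa probe had normalized log2 values of 9.7 and 9.32 on the Bmp2b arrays, against 8.01 and 8.07 on the WT arrays, a log2 fold change of 1.47 ± 0.17 (SE, 2 arrays a group; limma adjusted p = 0.0231). The gap between the Bmp2b arrays was 0.38 and the gap between the WT arrays 0.06. Among all tested probes, 1.43% had a larger log2 fold change.

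The other nppa probes gave smaller differences. A_15_P111331 had 7.53 and 7.72 on the Bmp2b arrays, against 6.93 and 6.93 on the WT arrays, a log2 fold change of 0.7 ± 0.12 (limma adjusted p = 0.04). A_15_P164096 had 7.57 and 7.39 on the Bmp2b arrays, against 6.82 and 6.72 on the WT arrays, a log2 fold change of 0.71 ± 0.13 (limma adjusted p = 0.0405). Both probes carry the same transcript accession as the brightest one, and both were dim: on Bmp2b array 1 they read 1.22 and 1.25 times background, where the brightest read 5.24 times. An offset of 50 was added before taking logarithms, which pulls fold changes of dim probes towards 0. With an offset of 16 and all else kept, log2 fold changes were 0.89 for A_15_P111331, 0.94 for A_15_P164096 and 1.63 for the brightest nppa probe. The brightest probe thus also rose, from 1.47, and both dim probes stayed below it. On the authors' processed intensities, log2 fold changes in the same order were 1.23, 1.38 and 1.74 after quantile normalization. No offset was added to these intensities, and their background treatment is not given in the sources used here. Why the dim probes differed less between groups than the brightest one was not tested.

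The nppb probes differed by more than 1 log2 unit between groups. A_15_P189981 had normalized log2 values of 12.07 and 11.96 on the Bmp2b arrays, against 10.41 and 10.56 on the WT arrays, a log2 fold change of 1.53 ± 0.12 (limma adjusted p = 0.019). Here the Bmp2b arrays differed by 0.11 and the WT arrays by 0.15. A_15_P102414 had 11.17 and 10.74 on the Bmp2b arrays, against 9.85 and 9.81 on the WT arrays, a log2 fold change of 1.13 ± 0.18 (limma adjusted p = 0.0352). Larger log2 fold changes were seen at 1.28% and 3.26% of all tested probes.

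The normalized difference was present on each Bmp2b array taken alone. Over its probes nppa was higher than the WT mean by 1.02 on Bmp2b array 1 and by 0.9 on Bmp2b array 2, and nppb by 1.46 and 1.19. The mean difference of nppb exceeded that of nppa by 0.44 on Bmp2b array 1 and 0.29 on Bmp2b array 2. This order was not kept under every scaling. With scaling to the 75th percentile, log2 fold changes were 1.06, 1.38 and 1.11 for nppa and 0.88 and 1.26 for nppb. Centred on heart muscle they were 1.8, 2.12 and 1.85 for nppa and 1.62 and 2 for nppb. Whether the 2 genes differ in their response was not tested, since the probes of nppa themselves ranged from 0.7 to 1.47 and 2 arrays against 2 cannot give an exact permutation p below 0.333.

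The dissected tissue carried the markers of heart muscle in both groups. myl7, a myosin light chain gene of all heart muscle, had normalized log2 values of 17.19 and 16.87 on the Bmp2b arrays, against 17.31 and 16.98 on the WT arrays. Of 13 heart muscle genes on a fixed list, 11 were tested, and 0 were higher, 3 lower and 8 not passing. Over all tested genes 9% were called higher and 8.22% lower. The median log2 fold change of the 11 was -0.62, beside 0.01 for all tested genes. Over the list the mean log2 level was 14.71 to 15.13 on the Bmp2b arrays, against 15.47 to 15.55 on the WT arrays. The genes called lower were casq2, for the calcium store protein calsequestrin (log2 fold change -1.39), the titin gene ttn.2 (-0.82) and the troponin T gene tnnt2a (-1.14). Under 7 other scalings or background corrections casq2 was called in 6, ttn.2 in 1 and tnnt2a in 0. Second probes of casq2, at 0.72, and tnnt2a, at -0.43, did not pass (limma adjusted p = 0.18 and 0.298). Of ttn.2 10 probes were tested, and those not shown lay between -1.28 and -0.06, of which 2 passed. The value of tnnt2a was 0.02 when processed intensities were put on a common 75th percentile. In whole hearts, fewer cells of a type and less RNA per cell cannot be told apart.

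The members were also taken against 7 heart muscle genes: myl7, tnnt2a, cmlc1, actc1a, tnnc1a, tnni1b and tpm4a. The tested genes smyd1b, casq2, ryr2b and ttn.2 were not among these. Relative to the mean of the 7 on the same quantile-normalized array, the 5 member probes were higher than in WT on both Bmp2b arrays. The difference was 1.01 to 2.07 log2 units on Bmp2b array 1 and 1.41 to 2.26 on Bmp2b array 2. The heart muscle mean itself differed from WT by -0.41 log2 units on Bmp2b array 1 and by -0.79 on Bmp2b array 2. In a separate setting every array was centred on these 7 genes without quantile normalization, so its values are not those above. There log2 fold changes of the members were 1.62 to 2.12 and all 5 were called (limma adjusted p = 0.00312 to 0.00413). However, 55.3% of all probes were then called higher, and the median over all probes moved to 1.02.

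Markers of other tissues differed between the Bmp2b arrays. Of 11 neural markers tested, all 11 were higher on Bmp2b array 2 than on array 1, and their mean log2 level was 8.47 to 10.42 on the Bmp2b arrays, against 9.29 to 9.32 on the WT arrays. Of 8 epidermal markers tested, 7 were higher on Bmp2b array 2. The mean level of the 8 was 9.63 to 12.05 on the Bmp2b arrays, against 9.9 to 9.91 on the WT arrays. The epidermal keratin gene cyt1 was below background. Limma called 0 neural markers (1 at an unadjusted p under 0.05) and 1 epidermal marker, where 9% of all tested genes were called higher and 8.22% lower. The epidermal marker was the keratin gene krt8. It had 17.81 and 17.45 on the Bmp2b arrays, against 16.53 and 16.57 on the WT arrays (log2 fold change 1.08, limma adjusted p = 0.0315). With WT as 1 sample, limma called 0 epidermal markers under either prior. Of the member probes, 4 of 5 were lower on Bmp2b array 2 than on array 1, by 0.11 to 0.43 log2 units. Log2 differences of the member probes from WT were 0.6 to 1.66 on Bmp2b array 1, which had the lower neural and epidermal levels, and 0.62 to 1.47 on Bmp2b array 2. Whether they differ between these arrays was not tested.

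Markers of pericardium, the sac around the heart, and of other mesothelium, the lining of body cavities, had a mean level above WT on both Bmp2b arrays. The same held for 2 other lists. Yolk and endoderm genes had 8.42 to 9.18 on the Bmp2b arrays, against 8.31 to 8.36 on the WT arrays. Heart transcription factors had 10.74 to 10.96, against 10.59 to 10.65. gata5 is on both of these lists, with 15.32 and 14.47 on the Bmp2b arrays, against 14.3 and 14.49 on the WT arrays. A second gata5 probe, at -0.58, was called lower (limma adjusted p = 0.0432). The yolk and endoderm genes had a median difference from WT of 0 on Bmp2b array 1 and 1 on Bmp2b array 2. hand2 is on both the factor list and the pericardial list. Of 8 listed pericardial and mesothelial genes 5 were tested. Of these, 3 were higher (9% of all tested genes), 0 lower (8.22% of all tested genes) and 2 did not pass. Their median log2 fold change was 1.44, beside 0.01 for all tested genes. Their mean log2 level was 10.68 to 11.01 on the Bmp2b arrays, against 9.33 to 9.35 on the WT arrays, and the markers tbx18, wt1a and upk3b were below background. The genes of these tissue lists that passed are named after their values were seen. sfrp5, for a secreted Wnt inhibitor, had normalized log2 values of 13.71 and 13.13 on the Bmp2b arrays, against 10.5 and 10.64 on the WT arrays (limma adjusted p = 0.019). aldh1a2, for an enzyme that makes retinoic acid, had 10.16 and 10.27 on the Bmp2b arrays, against 7.87 and 7.82 on the WT arrays (limma adjusted p = 0.0138). jam2b, for a junction protein, had 9.24 and 8.58 on the Bmp2b arrays, against 7.46 and 7.49 on the WT arrays (limma adjusted p = 0.0394). With WT as 1 sample limma called 0 of the 5 (3 at an unadjusted p under 0.05), and with trend and robust priors added it called sfrp5 and aldh1a2 (adjusted p = 0.0149 and 0.0369). The part of these tissues in the nppa and nppb result was not tested.

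Of 7 endothelial and endocardial genes tested 0 were higher and 1 was lower, where 9% of all tested genes were called higher and 8.22% lower. The 7 had a median log2 fold change of -0.49 and a mean level of 10.47 to 10.75 on the Bmp2b arrays, against 11.08 to 11.09 on the WT arrays. The lower gene, sox18, was not well above background on either Bmp2b array, and its sign turned with centring on heart muscle. Of 7 blood genes tested 0 were higher and 2, lmo2 and tal1, were lower (log2 fold changes -1.1 and -0.94), with a median of -0.26 and a mean level of 9.1 to 9.58 on the Bmp2b arrays, against 9.71 to 9.76 on the WT arrays. These medians turned positive with centring on heart muscle (0.45 and 0.21). Of 7 skeletal muscle genes and 6 yolk and endoderm genes tested, limma called 0 (1 on each list at an unadjusted p under 0.05), with medians of 0.05 and 0.51. With centring on heart muscle 5 on each list were called higher, where 55.3% of all probes were called higher. Mean levels of these lists, in the same order, were 8.76 to 9.02 and 8.42 to 9.18 on the Bmp2b arrays, against 8.84 to 8.87 and 8.31 to 8.36 on the WT arrays.

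**Figure D2:**
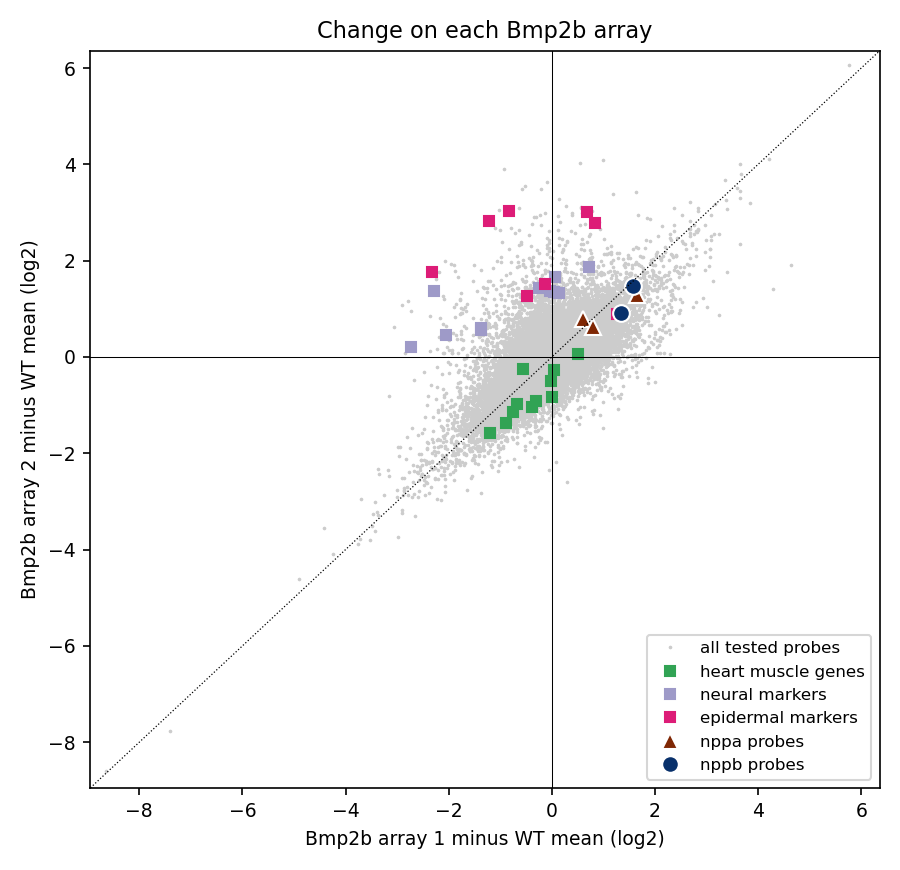
Each point is a probe, placed by its log2 difference from the WT mean on Bmp2b array 1 (horizontal) and Bmp2b array 2 (vertical); grey points are all 24454 tested probes, the dotted line marks equal change. The nppa and nppb probes lie at positive values on both axes near the dotted line, heart muscle genes lie mostly at or below 0 on both, and neural and epidermal markers lie mostly far above the line.

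The rest of the natriuretic peptide pathway gave calls in both directions. Of 25 listed genes 13 had a probe, 6 of these were below background and 7 were tested, of which 1 was higher, 2 were lower and 4 did not pass. The other listed genes, among them corin, for the protease that activates atrial natriuretic peptide in mammals, were not analysed here. Over all tested genes 9% were called higher and 8.22% lower. The median log2 fold change of the 7 was -0.12, with a sign that turned with scaling to the 75th percentile (0.17) and with centring on heart muscle (0.91). With that centring 4 of the 7 were called higher and 0 lower, where 55.3% of all probes were called higher.

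Among receptors, npr1a, a guanylyl cyclase that binds the peptides, had normalized log2 values of 7.24 and 6.83 on the Bmp2b arrays, against 7.16 and 7.14 on the WT arrays, and was not called (limma adjusted p = 0.667). The clearance receptor gene npr3 had 2 tested probes that disagreed. On the log2 scale the brighter was at 0.3 ± 0.27 (limma adjusted p = 0.475) and the other at -0.83 ± 0.12 (limma adjusted p = 0.0289). No direction is therefore given for npr3.

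Among other peptides, the C-type genes nppc and nppcl were not well above background. The probe of nppal, the neighbour of nppb, was added to the description after its values were seen. It read 39 and 31 on the Bmp2b arrays, against 17 and 15 on the WT arrays, below the background of 50 and 48 on the Bmp2b arrays and of 33 and 32 on the WT arrays. It was not tested and no difference is given for it.

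Among processing and removal genes, furinb, for a protease that cuts precursor proteins, had normalized log2 values of 10.45 and 10.41 on the Bmp2b arrays, against 11.92 and 11.66 on the WT arrays. The log2 fold change was -1.36 ± 0.14 (limma adjusted p = 0.021), but its second probe had 0.8 ± 0.2 (adjusted p = 0.0713). Its paralogue furina had a log2 fold change of 1.25 ± 0.29 and did not pass (adjusted p = 0.0602). The neprilysin-like peptidase gene mmel1 was higher, with 11.57 and 11.21 on the Bmp2b arrays, against 10.43 and 10.54 on the WT arrays (log2 fold change 0.9 ± 0.17, adjusted p = 0.0438). ide, for the insulin-degrading enzyme, which also cuts atrial natriuretic peptide in mammals, was lower, with 11.92 and 12.12 on the Bmp2b arrays, against 12.63 and 12.79 on the WT arrays (log2 fold change -0.69 ± 0.14, adjusted p = 0.0476). The 3 called genes kept their sign under 7 other scalings or background corrections, which called furinb in 6, mmel1 in 2 and ide in 1.

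Among effectors, the phosphodiesterase gene pde3b, whose product breaks down cyclic nucleotides, had a log2 fold change of -0.62 ± 0.14 and did not pass (limma adjusted p = 0.0569). prkg1a and prkg2, for the protein kinases that cyclic GMP activates, and pde3a and pde5ab, for phosphodiesterases, were not well above background.

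**Figure D3:**
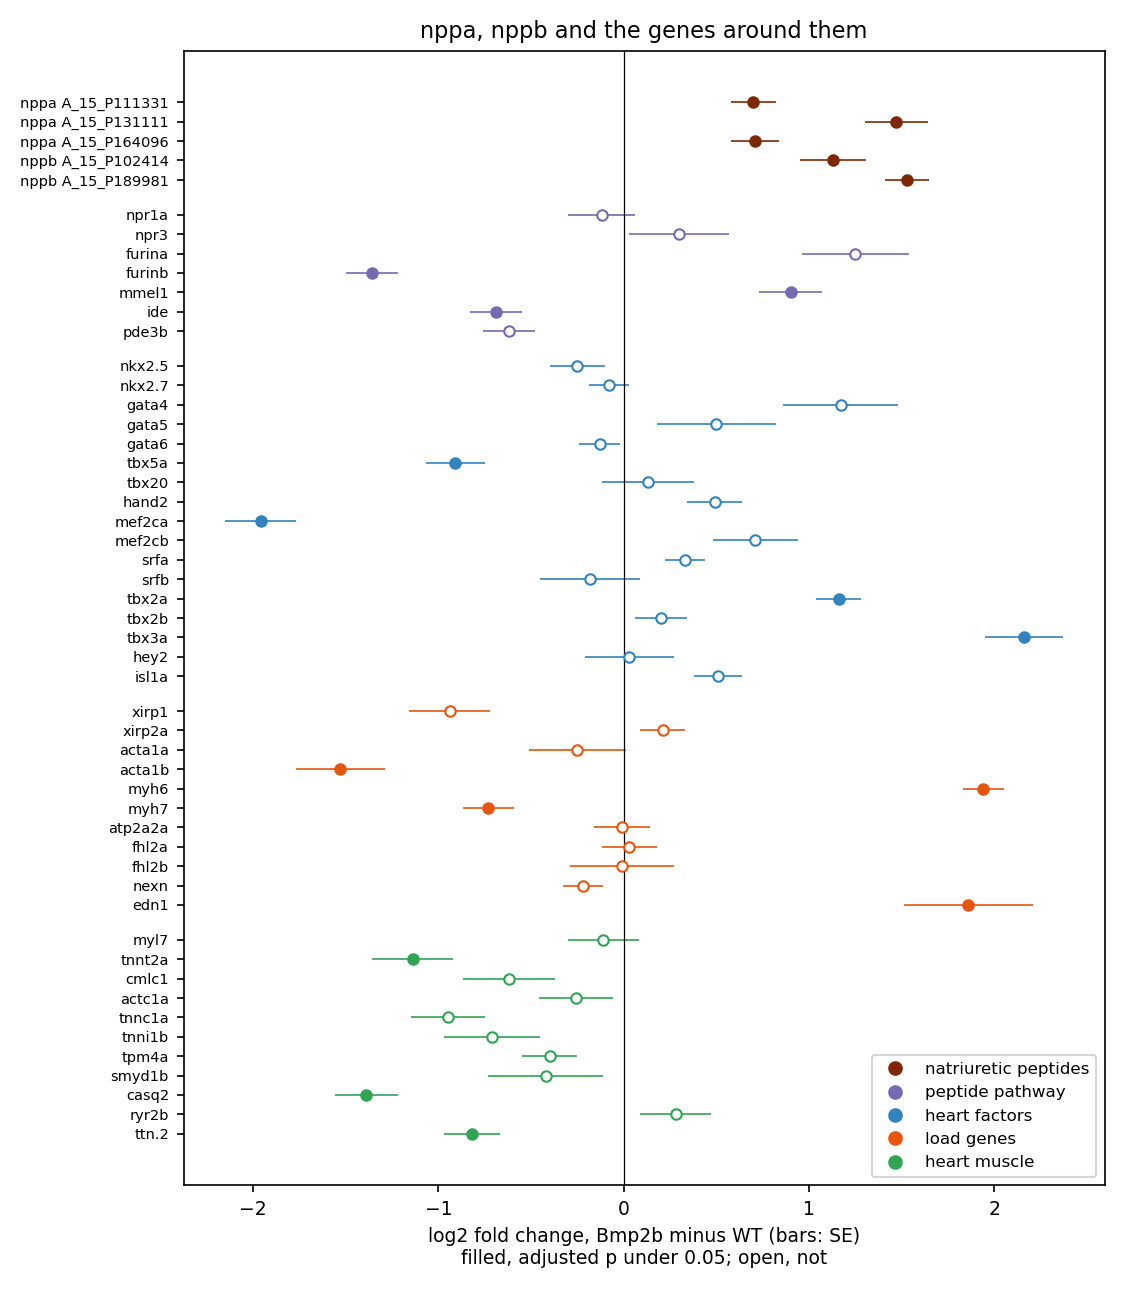
Points are limma log2 fold changes, Bmp2b minus WT, with SE, for the 5 nppa and nppb probes and, below them, for the brightest tested probe of each gene of 4 lists; filled points have an adjusted p under 0.05 and open points do not. The member probes lie between 0.7 and 1.53, while the pathway, heart factor, load and heart muscle genes lie on both sides of 0.

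Heart transcription factors, several of which act on nppa in vertebrates, went both ways. Of 17 tested, 2 were higher, 2 lower and 13 did not pass, where 9% of all tested genes were called higher and 8.22% lower. The median of the 17 was 0.2 on the log2 scale. The balance among these factors depended on the scaling. With centring on heart muscle 9 were called higher and 1 lower (median 0.9), where 55.3% of all probes were called higher. For 2 T-box repressor genes values were higher: tbx3a had normalized log2 values of 9.61 and 10.13 on the Bmp2b arrays, against 7.74 and 7.69 on the WT arrays, and tbx2a had 7.87 and 7.79 on the Bmp2b arrays, against 6.62 and 6.73 on the WT arrays. Repression of the mouse gene Nppa by these factors is background knowledge. A second tbx2a probe, at 0.23, did not pass.

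The other factors gave 2 genes that fell. tbx5a, a T-box activator, had 7.26 and 7.07 on the Bmp2b arrays, against 7.93 and 8.22 on the WT arrays (log2 fold change -0.91, limma adjusted p = 0.0386), and with centring on heart muscle it had 0.01. A second tbx5a probe, at -1.14, did not pass (limma adjusted p = 0.0594). mef2ca, for a myocardial factor, was lower with each of its 4 probes, the brightest at -1.96. Under 7 other scalings or background corrections tbx5a was called in 2, mef2ca and tbx2a in 7 and tbx3a in 6. None of nkx2.5, tbx20, tbx2b and hand2 passed, with limma adjusted p-values of 0.3, 0.733, 0.388 and 0.102. Their log2 fold changes were -0.25 for the homeobox factor gene nkx2.5, 0.13 for tbx20, 0.2 for tbx2b and 0.49 for hand2. Signs turned for nkx2.5 with centring on heart muscle and for tbx2b with scaling to the 75th percentile. Second probes of nkx2.5 and tbx2b had the opposite sign, at 0.43 and -0.35 (limma adjusted p = 0.0913 and 0.13). No direction is therefore given for these genes. For gata4, a zinc finger activator of nppa and nppb in mammals, the log2 fold change was 1.17 ± 0.31 and did not pass (adjusted p = 0.0761), with 10.37 and 9.55 on the Bmp2b arrays, against 8.76 and 8.82 on the WT arrays.

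Genes that change with the natriuretic peptides in loaded mammalian hearts gave calls in both directions. Of 11 tested, 2 were higher, 2 lower and 7 did not pass, where 9% of all tested genes were called higher and 8.22% lower. The list gives no direction of change under load, so the counts are not set against one. The median of the 11 was -0.01, and its sign turned in some scalings. With centring on heart muscle 3 were called higher and 0 lower, where 55.3% of all probes were called higher. myh6, the atrial myosin heavy chain gene, was higher, with 14.71 and 14.74 on the Bmp2b arrays, against 12.77 and 12.81 on the WT arrays (log2 fold change 1.94 ± 0.11, limma adjusted p = 0.0138). edn1, for the peptide endothelin, was higher with both of its probes (1.86 and 1.64 on the log2 scale, limma adjusted p = 0.0425 and 0.0411). The skeletal-type actin gene acta1b (log2 fold change -1.53) and the ventricular myosin gene myh7 (-0.73) were lower. A second acta1b probe, at -0.46, did not pass (limma adjusted p = 0.173). Under 7 other scalings or background corrections myh6 was called in 7, edn1 in 4, acta1b in 5 and myh7 in 1. ankrd1b, for a stretch-responsive protein of the sarcomere, was not well above background, and ankrd1a was not analysed here. Of the 14 genes called among the 46 tested on the pathway, factor, load and heart muscle lists, limma called 0 with WT as 1 sample (11 at an unadjusted p under 0.05), and 1, myh6, with trend and robust priors added.

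Genes whose pattern over the 4 arrays was most like that of the members were taken by the root mean square distance between log2 values, each centred on its mean over arrays, among 10621 named genes. Here nppa was represented by its brightest probe only, A_15_P131111, and nppb by A_15_P189981. For nppa these were slc25a47b (distance 0.0158), a mitochondrial carrier gene, ecscr (0.0282), for an endothelial cell surface protein, galm (0.0358), for galactose mutarotase, crabp2b (0.0373), for a retinoic acid-binding protein, and tigarb (0.0395). For nppb they were glud1a (0.0392), for glutamate dehydrogenase, sparc (0.042), for a collagen-binding glycoprotein, slc25a34 (0.0505), ap3m2 (0.0598), of a vesicle adaptor, and dpysl2b (0.0611). Their log2 fold changes lay between 1.41 and 1.57, as the distance requires. These probes of nppa and nppb were 0.103 apart, which placed nppb 51st in the order for nppa and nppa 34th in the order for nppb. The other nppa probes, with log2 fold changes of 0.7 and 0.71, and the other nppb probe were not used in these orders. With 4 arrays this likeness describes these arrays only.

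Across 18 alternative ways of processing and fitting, all 5 probes kept a positive log2 fold change. Several of these changed only the filter, the variance prior, the block or the count of WT samples. They keep the same group means, so their log2 fold changes could not differ from those reported. Scaling to the 75th percentile moved the median of all probes from -0.06 to 0.28, and there the members were 0.6 to 1.1 above that median and 1 of 5 was called, where 2.02% of all probes were called higher. Without WT array 1 or without WT array 2, limma called 0 of 5 (3 of 5 at an unadjusted p under 0.05 each time), with adjusted p = 0.285 to 0.464 and 0.232 to 0.458. Without Bmp2b array 1 or without Bmp2b array 2 all 5 were called, and so were 61.8% and 69.6% of all probes in either direction. In such fits the lone array is assumed to vary like those of the other group. With slide as a random block, its correlation assumed to be 0.5, limma called 0 of 5 (adjusted p = 0.0989 to 0.166; 5 of 5 at an unadjusted p under 0.05).

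**Figure D4:**
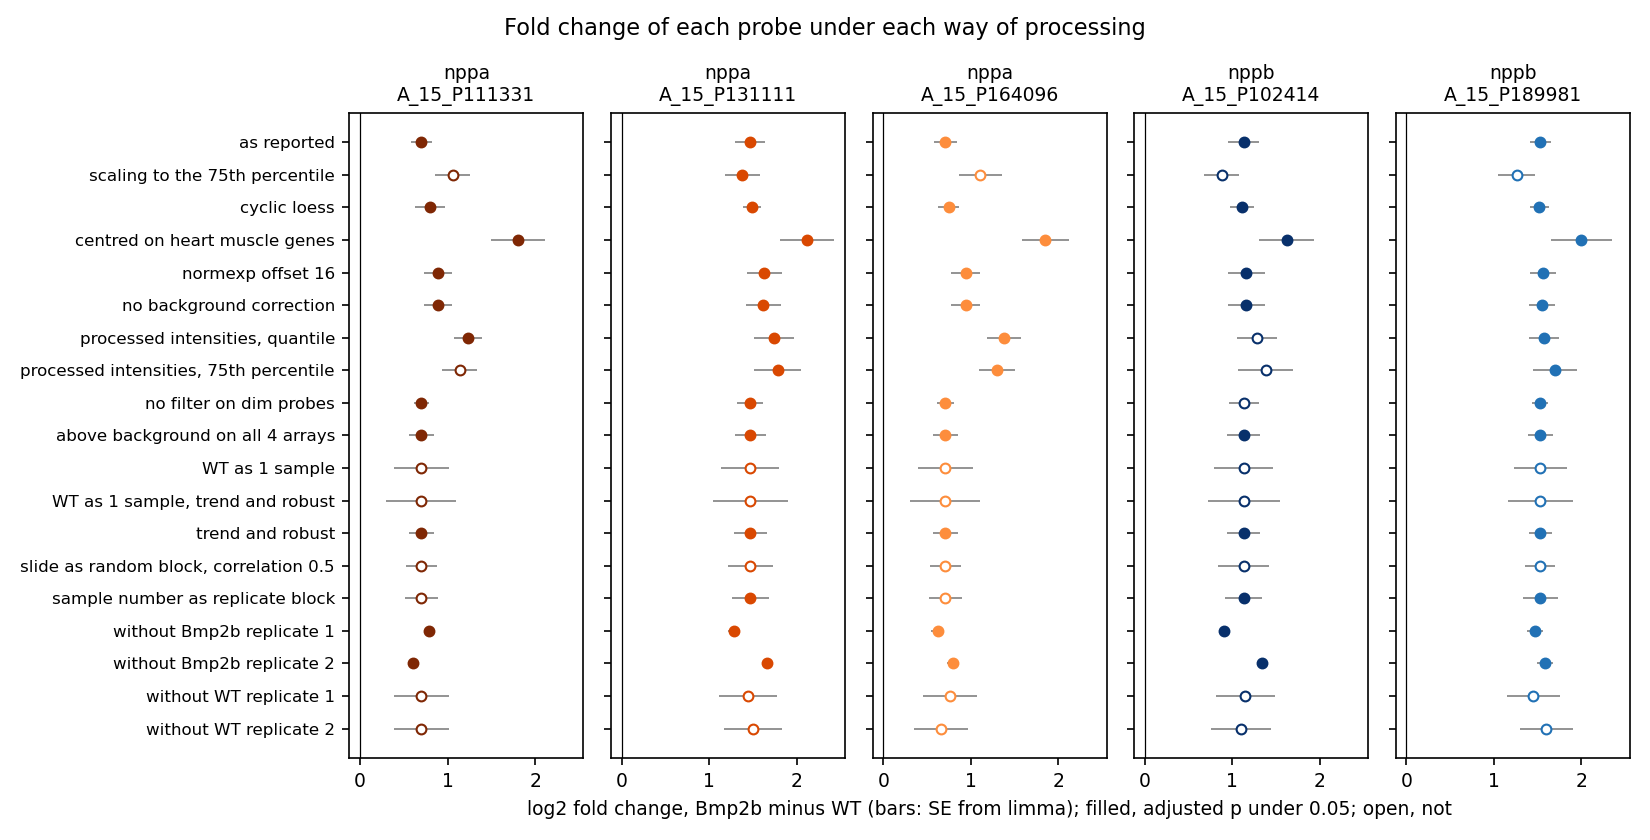
Each panel is 1 probe and each row 1 way of processing, with the limma log2 fold change, Bmp2b minus WT, and its SE; filled points have an adjusted p under 0.05 and open points do not. Every point lies above 0, from 0.6 to 2.12, and points are open for all 5 probes where the WT arrays count as 1 sample, where slide is a random block, and where either WT array is left out.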

How the data were processed

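Per the labels, 200 ng of RNA a sample, with an integrity number over 8, went through a single amplification and Cy3 labelling. The authors deposited raw median spot intensity on a linear scale, per the file headers, and a table of processed intensities whose background treatment is not given in the sources used here. For the images, the submitters' processing notes name Agilent Feature Extraction. The series' value table held the same processed intensities for 43553 of its 43553 probes. Raw intensities of 43803 spots were corrected by normexp (offset 50, no background column), log2-transformed, quantile-normalized and averaged over spots of a probe. No depth exists for arrays, and their number limits the precision. A probe was tested where it exceeded background on at least 2 arrays.

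Bmp2b arrays were compared with WT by limma 3.58.1 in R 4.3.3 (lmFit, eBayes, two-sided, Benjamini-Hochberg, threshold 0.05), checked on simulated data. Errors are SE. The simulated noise of a probe had the same spread in both groups, so the check does not cover WT arrays as alike as these. Nothing says that the samples came from separate crosses, so p-values measure the spread between these samples only. A gene other than nppa and nppb was represented by its brightest tested probe. In the search for genes of like pattern, nppa and nppb were represented in the same way. Text names every nppa and nppb probe, the pathway list, up to 6 called members and 12 preset genes of 3 other lists, and the 5 genes nearest each member. Members and lists were chosen with earlier results of these data known. Alternatives covered scaling, background correction, filter, variance prior, slide, sample number and leaving out each array.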

Additional observations from a re-analysis of the deposited data

How the results depend on the processing

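Of 90 log2 fold changes (5 probes under 18 alternatives), 55 stayed on the same side of the threshold, 35 lost the call and 0 turned. Where only the filter, the variance prior, the block or the count of WT samples changed, the sign could not turn. The cause of a lost call was not tested. In the order A_15_P111331, A_15_P131111, A_15_P164096 (nppa), A_15_P102414, A_15_P189981 (nppb), values were 0.7, 1.47, 0.71, 1.13 and 1.53 with WT as 1 sample, with WT as 1 sample under trend and robust priors (adjusted p = 0.113 to 0.496) and with a random slide block (correlation set to 0.5; adjusted p = 0.0989 to 0.166), and 0 of 5 were called in each. The slide correlation could not be estimated from these arrays, so that alternative was not run. Scaling to the 75th percentile gave 1.06, 1.38, 1.11, 0.88 and 1.26, of which only the second was called (adjusted p = 0.0484). Calls were lost for A_15_P102414 on processed intensities with quantile normalization (1.28), on processed intensities with a common 75th percentile (1.38, and 1.14 for A_15_P111331) and with no filter (1.13, adjusted p = 0.0502). With the sample number as a replicate block, A_15_P111331 (0.7) and A_15_P164096 (0.71) lost the call and the other 3 kept it. Between arrays that share a sample number, deviations from the group mean had a correlation of 0.09. The WT arrays differed by less than the spot-to-spot spread predicts, so this value cannot show whether the arrays were paired. Leaving out each array in turn gave 0.6 to 0.79, 1.28 to 1.66, 0.62 to 0.8, 0.91 to 1.34 and 1.45 to 1.6.

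All-probe counts were 1668 higher and 2208 lower as reported. They were 493 and 378 with scaling to the 75th percentile (share of higher calls 56.6% against 43%), 13533 and 321 centred on heart muscle (97.7%), 1067 and 1562 on processed intensities, 824 and 1217 on processed intensities at a common 75th percentile, 0 and 1 with WT as 1 sample or slide as a block, and 76 and 113 with WT as 1 sample under trend and robust priors. Leaving out an array gave 0 to 7462 higher and 1 to 9565 lower. Of the 7 pathway genes, 3 were called as reported, 5 with cyclic loess, 1 with scaling to the 75th percentile, offset 16, no background correction, either processed table or no filter, 0 with WT as 1 sample (either prior) or slide as a block, and 0 to 6 with an array left out. Of the member probes, the 2 dimmer nppa probes lay closest to background, at 1.22 and 1.25 times background on Bmp2b array 1.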
